A study of Homo sapiens with 12 samples.

Results

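The effect of advanced glycation end products (AGEs) was estimated over all groups of a study of neutrophil-like cells by setting the 6 libraries of cells given AGEs against the 6 libraries of cells not given them. High glucose entered the fit as a second factor, and all 12 of 12 libraries were used. Genes were kept where FPKM (fragments scaled to gene length and to the library's total) reached 1 in at least 3 libraries, which left 9751 of 10465 rows of the deposited table. The members were thus fixed by treatment and level, and no response to AGEs chose them.

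The cells came from HL-60, a cell line of human promyelocytic leukaemia that can be driven towards a neutrophil-like state, so every group shares 1 line. All cells were treated for 24 h and total RNA was extracted with Trizol. The control group received bovine serum albumin (BSA) at 0.05 ug/mL, the AGEs group received AGEs at 0.05 ug/mL, the glucose group received D-glucose at 30 mmol/L, and the last group received AGEs at 0.05 ug/mL together with D-glucose at 30 mmol/L. Each group had 3 libraries. BSA is named for the control group only, so the 6 libraries without AGEs join a group labelled with BSA to a group that is not. Nothing in the labels says whether libraries within a group were separate cultures. The p-values therefore rest on the spread among these samples alone, and that spread may be technical.

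AGEs form when reducing sugars or reactive dicarbonyls modify proteins without an enzyme. They bind the receptor RAGE, encoded by AGER, which also binds S100 proteins and HMGB1 and passes a signal through DIAPH1, MAP kinases and NF-kappaB. Neutrophils carry RAGE ligands in large amounts, above all S100A8 and S100A9, and respond to stimuli with an oxidative burst, granule release and cytokine production.

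FPKM sums ran from 220444 to 233854 per library, and since FPKM holds no read counts the depth of each library is unknown. The correlation of log2 values between a pair of libraries was 0.972 to 0.986 inside a group and 0.970 to 0.986 from one group to another. The limma weight, which is low where a library departs from the fit, was 0.234 for AGEs 1 and 0.553 for glucose 3, against 0.920 to 1.51 for the other libraries. Beside a named gene whose call ended, or whose difference over all groups moved by over 1.5 times, when either library was left out, the value without that library is given. Named genes that overlap another annotated coding gene are uncertain, because the strand setting of the counting is not given in the sources used here. Beside those marked in the text, they are TLR4, OLR1, PRG2, FCGR1A, RPL10, C17orf62 and FAM134A.

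Markers of neutrophils were present in every library. The integrin subunits ITGB2 and ITGAM stood at 149.9 to 199 and 56.5 to 75.3 FPKM, the granule peroxidase MPO at 90.1 to 134, S100A9 at 326 to 448 and the chemokine receptor CXCR2 at 19.3 to 25.4, while CEACAM8 was close to 1 at 0.697 to 1.42. Of 12 neutrophil markers listed, FCGR3B, ELANE and LTF were not in the table under these symbols and were not analysed here. CLC, which encodes galectin-10 and marks eosinophils and basophils, stood at 2085 to 2563 FPKM, which is not a neutrophil trait. Of the markers of monocytes, CSF1R and LYZ were in the table (2 of 8), and none of 7 erythroid markers was. The summed level of the 9 neutrophil markers in the table was 804 to 882 FPKM with AGEs and 721 to 852 without. That of 5 eosinophil and basophil markers was 2417 to 2764 with AGEs and 2181 to 2612 without. CLC, at a mean of 2362 FPKM, made up most of this second sum. In bulk RNA, fewer cells of a type and less RNA per cell cannot be told apart.

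No gene passed the threshold for AGEs over all groups. The limma test on log2(FPKM + 1), with Benjamini-Hochberg adjusted p under 0.05, called 0 of 9751 genes (0%), and the smallest adjusted p was 0.697. At an unadjusted p under 0.05 there were 560 genes (5.74%) against 488 expected by chance, of which 317 (3.25%) were higher with AGEs and 243 (2.49%) lower. Differences were small. The median absolute log2 difference was 0.0596, 69 genes differed by more than 0.5 and 4 by more than 1. The values of all 6 AGEs libraries lay apart from those of all 6 libraries without AGEs in 38 genes (0.39%), 13 with AGEs higher (0.133%) and 25 with AGEs lower (0.256%). A fit of the 4 group means, in which the AGEs effect may depend on glucose, called 1 gene, the plasma membrane calcium pump ATP2B4. It is described with the genes called in 1 setting.

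The log2 differences for AGEs without glucose (AGEs against BSA) were nearly uncorrelated with those in glucose (AGEs plus glucose against glucose). These comparisons have no library in common. Across the 9751 genes their log2 differences had a Pearson r of 0.0823 and a Spearman rho of 0.0861, given as a description because genes are not independent, and 53.5% of genes had the same sign in both. The AGEs libraries lay above the others in both comparisons for 41 genes (0.42%), below them in both for 40 (0.41%), and on opposite sides for 61 (0.626%). Each comparison called 3 genes (0.0308%), and none of them was the same gene. At a limma unadjusted p under 0.05 there were 462 genes without glucose and 590 in glucose, against 488 expected by chance. Most of the differences may thus be noise among few libraries, so the low correlation cannot show that the effects themselves differ.

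**Figure D1:**
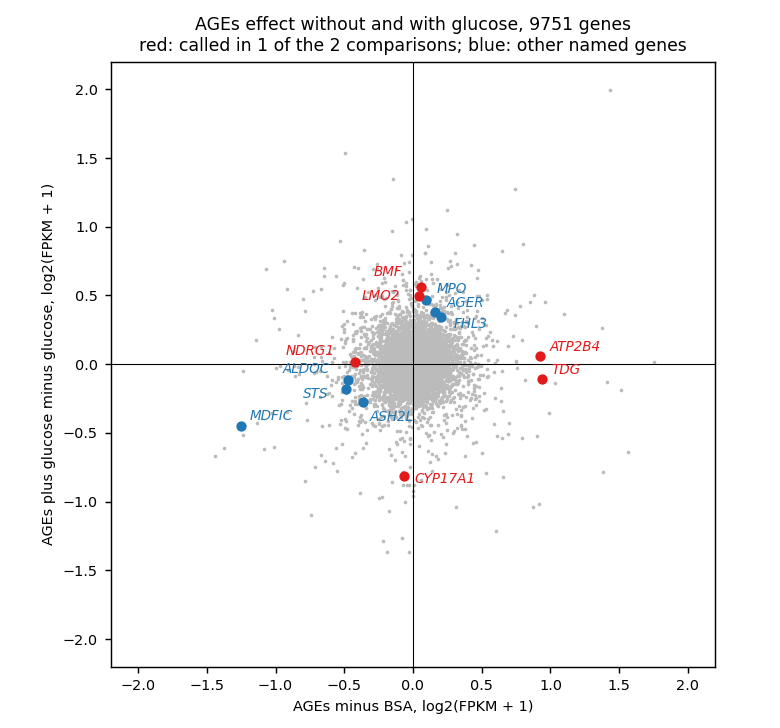
Each point is 1 of the 9751 genes, placed by its log2(FPKM + 1) difference between AGEs and BSA (x axis) and between AGEs plus glucose and glucose (y axis); red marks genes called in 1 of these comparisons, blue other named genes, and 1 gene lies outside the axes. The cloud is round (Pearson r 0.0823), and the called genes lie near an axis: TDG at 0.94 and -0.11, CYP17A1 at -0.06 and -0.81.

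Targets of the hypoxia-inducible factor HIF1, which include glycolytic enzymes and angiogenic genes, stood mostly lower with AGEs. Of 29 targets listed 24 were tested, 20 of them below 0 and 4 above, with a median log2 difference of -0.128 against 0.00 over all genes, of which 4875 were below 0. None passed adjusted over all genes, 5 were lower at an unadjusted p under 0.05 (2.49% of all genes were) and 0 were higher. ALDOC and P4HA1 were the 2 targets whose 6 AGEs libraries all lay below the 6 others (0.256% of all genes were so placed), as did the glycolytic enzyme PGK1, which stood on the list of glycolysis. The median was -0.224 without glucose and -0.0115 in glucose, and the difference of these medians was not tested. Since AGEs against BSA is among the comparisons whose results were known when the list was written, the list's direction there is no independent evidence. The same holds for its direction over all groups, which averages that comparison with the one in glucose.

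The promoters of ALDOC, PGK1 and P4HA1 are shown because these 3 genes of the HIF1 and glycolysis lists had no overlap between libraries with and without AGEs. Over all genes 38 had no overlap, and promoters of those outside the 2 lists are not shown. They are RefSeq sequences of GRCh38.p14, 250 bases before to 50 after the start, 5′ to 3′ on the gene's strand, with capitals marking the HIF core letters ACGTG and GCGTG on either strand. The ALDOC promoter (chr17:28576846-28577145, minus strand) held 5 matches at 4 places, 3 to ACGTG and 2 to GCGTG. Of the ACGTG matches 2 are the single E-box CACGTG, which reads the same on both strands.
ALDOC: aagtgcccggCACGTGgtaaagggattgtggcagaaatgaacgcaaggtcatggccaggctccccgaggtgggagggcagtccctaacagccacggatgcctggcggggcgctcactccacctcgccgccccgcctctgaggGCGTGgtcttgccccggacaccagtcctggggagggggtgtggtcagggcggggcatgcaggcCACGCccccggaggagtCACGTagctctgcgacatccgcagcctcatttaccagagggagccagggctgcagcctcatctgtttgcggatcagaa
The PGK1 promoter (chrX:78103998-78104297, plus strand) held 4 matches at 4 places, 3 to ACGTG and 1 to GCGTG.
PGK1: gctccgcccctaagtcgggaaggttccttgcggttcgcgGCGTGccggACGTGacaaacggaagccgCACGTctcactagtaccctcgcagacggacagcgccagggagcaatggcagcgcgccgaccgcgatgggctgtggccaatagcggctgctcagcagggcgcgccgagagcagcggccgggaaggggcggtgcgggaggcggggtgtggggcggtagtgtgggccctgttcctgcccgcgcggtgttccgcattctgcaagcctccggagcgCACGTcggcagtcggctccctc
The P4HA1 promoter (chr10:73096817-73097116, minus strand) held 1 match, to ACGTG.
P4HA1: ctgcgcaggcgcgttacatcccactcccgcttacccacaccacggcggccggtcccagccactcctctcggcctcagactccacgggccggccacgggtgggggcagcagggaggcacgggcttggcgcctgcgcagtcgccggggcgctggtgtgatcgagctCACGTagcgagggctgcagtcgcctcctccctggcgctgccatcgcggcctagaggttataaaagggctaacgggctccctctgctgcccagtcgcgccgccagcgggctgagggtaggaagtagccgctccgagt
Either core occurred in 17 of 19 HIF1 target promoters found (89.5%), in 15 of 22 promoters of glycolytic enzymes (68.2%), in 5195 of 7992 promoters of genes tested (65.0%) and in 48.4% of all promoters in the RefSeq table. ACGTG alone occurred in 12 of 19 (63.2%), 8 of 22 (36.4%), 2232 of 7992 (27.9%) and 21.6%. These are matches of letters and do not show that a factor binds there. The HIF1 list was written as targets of that factor, so a higher share of its core letters could be foreseen. It says nothing about a response to AGEs.

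ALDOC, the aldolase isoform best known from brain, stood at 13.7, 11.6 and 11.3 FPKM in the 3 AGEs libraries and 17.4, 17.8 and 16.6 with BSA. In glucose it stood at 14.1, 14.1 and 13.9 with AGEs and 15.2, 15.1 and 15.5 without. Every AGEs library lay below every library without AGEs, and the gap was wider without glucose (-0.47 ± 0.07 SE) than in glucose (-0.11 ± 0.07 SE). Over all groups the log2 difference was -0.29 ± 0.07 SE (n = 6 against 6, limma unadjusted p = 0.00142, adjusted p = 0.697). Its interaction of AGEs with glucose, 0.36 ± 0.10 SE, did not pass either (limma adjusted p = 0.857). Without AGEs 1, its highest AGEs library, ALDOC was called lower than with BSA, among 6 genes. Reads of ALDOC may be shared with AC005726.1, an annotated coding gene that overlaps it.

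PGK1, phosphoglycerate kinase, ran from 127 to 135 FPKM (median 131, n = 6) with AGEs and from 137 to 144 FPKM (median 143, n = 6) without. The difference was small and alike in both settings, -0.14 on the log2 scale without glucose and -0.09 in it. P4HA1, a subunit of the collagen prolyl hydroxylase, ran from 41.9 to 52.8 FPKM (median 50.1, n = 6) with AGEs and from 53.3 to 58.8 FPKM (median 56.7, n = 6) without, -0.29 and -0.09 on the log2 scale. AGEs 1 gave the lowest P4HA1 value of all libraries, and the groups do not overlap with or without it. Over all groups PGK1 had a log2 difference of -0.12 ± 0.03 SE and P4HA1 one of -0.19 ± 0.06 SE (n = 6 against 6), with limma adjusted p = 0.779 for both. PGK1 overlaps ATP7A and PGAM4 in the annotation.

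Other HIF1 targets were lower mainly without glucose. NDRG1, a stress-inducible gene of the hypoxia response, stood at 22.6, 21.7 and 21.8 FPKM with AGEs and 30.7, 29.99 and 29.04 with BSA, and fell there by 0.42 ± 0.06 SE on the log2 scale (n = 3 against 3, limma adjusted p = 0.037). In glucose it stood at 24.05, 24.8 and 25.8 with AGEs and 24.7, 25.4 and 23.7 without, and these libraries overlap. Its interaction, 0.44 ± 0.08 SE, had a limma adjusted p = 0.223, so a different effect in glucose is not shown. The call held when AGEs 1 or glucose 3 was left out (adjusted p = 0.019 and 0.0481) and was lost when any of the other 10 libraries was (adjusted p from 0.0596 to 0.193). It was also lost with TMM scaling (0.0691), with plain variance moderation (0.0653) and with the 2 groups fitted alone (0.421). SLC2A3, the glucose transporter of neutrophils and neurons, had the same layout, at 37.8, 35.8 and 36.3 with AGEs, 43.4, 46.1 and 45.7 with BSA, 39.2, 40.99 and 39.7 with AGEs plus glucose and 39.3, 38.4 and 39.5 with glucose. BSA libraries were the high ones for both genes and AGEs libraries the low ones, and the libraries of both glucose groups lay between them. The 4 glucose transporters tested were all below 0 (median -0.122), but SLC2A14 is a near-identical copy of SLC2A3, was listed at 0 in some libraries and is uncertain. VEGFA, the angiogenic growth factor, stood at means of 2.39 with AGEs, 3.32 with BSA, 3.28 with AGEs plus glucose and 3.305 with glucose. PFKFB3, which makes the activator of phosphofructokinase, was lower in both settings, at 4.23 ± 0.715 against 4.82 ± 0.231 and 3.64 ± 0.319 against 4.51 ± 0.561 FPKM (SD, n = 3), without passing. LDHA, among the 4 targets above 0, had 1 low library, BSA 3.

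**Figure D2:**
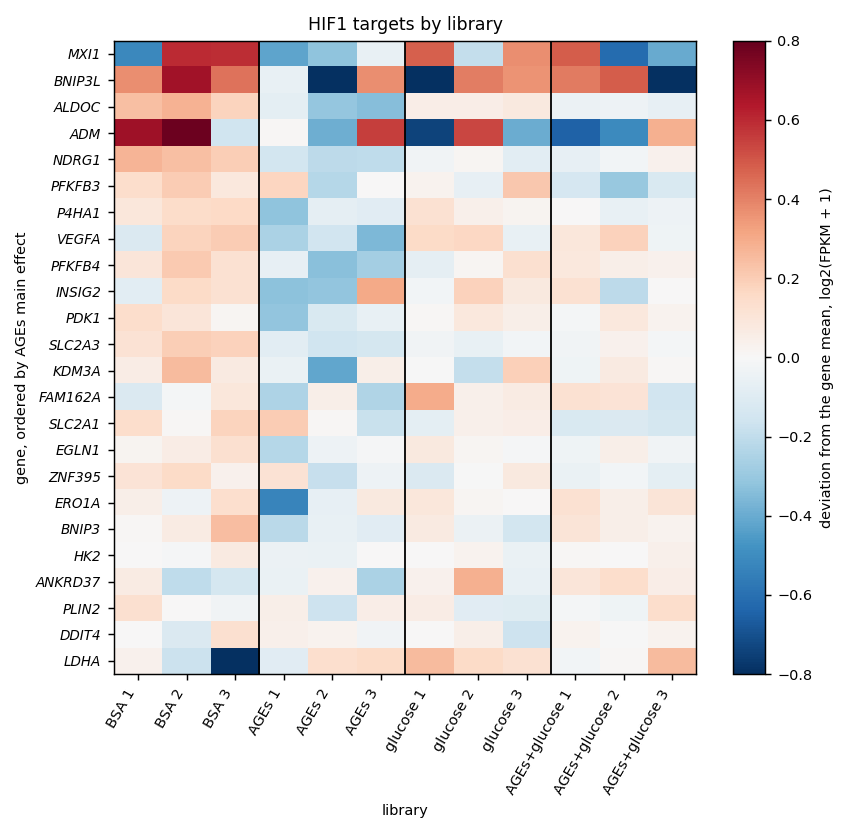
Rows are the 24 HIF1 targets tested, ordered by the AGEs effect, columns the 12 libraries in 4 groups, and colour the deviation of log2(FPKM + 1) from the gene's mean, limited to 0.8 either way (4 cells of 2 genes lie past it). The BSA columns are mostly red and the AGEs columns mostly blue, with paler columns for both glucose groups; the mean over the targets was 0.08 to 0.16 in BSA libraries, -0.19 to -0.03 with AGEs, -0.04 to 0.02 with AGEs plus glucose and -0.03 to 0.06 with glucose.

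Glycolytic enzymes as a group lay near the middle. Of 23 tested, 15 were below 0 and 8 above, with a median of -0.0461, and ALDOC, PGK1 and PFKFB3 were the 3 at an unadjusted p under 0.05, all lower (2.49% of all genes were). The median was -0.0829 without AGEs 1 and -0.0185 without AGEs 3. GBE1, the glycogen branching enzyme, which was on neither list, stood at 7.04 ± 0.623 FPKM with AGEs and 9.75 ± 0.954 with BSA (SD, n = 3). In glucose its values were 8.46 ± 0.475 and 9.23 ± 0.2501, and the libraries of that pair overlap.

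AGER itself, the gene of the receptor, was among the 12 genes with the smallest p in the direction of higher with AGEs. It stood at 1.71, 2.24 and 1.96 FPKM with AGEs and 1.75, 1.57 and 1.62 with BSA. In glucose it stood at 1.82, 1.77 and 1.76 with AGEs and 1.21, 1.27 and 0.962 without. The glucose libraries were the low ones, and AGEs 1 fell below BSA 1, so that the groups overlap without glucose and not in it. The log2 difference was 0.27 ± 0.07 SE over all groups (n = 6 against 6, limma unadjusted p = 0.0014, adjusted p = 0.697), 0.16 ± 0.09 SE without glucose and 0.38 ± 0.09 SE in glucose. The 2 effects were not shown to differ (interaction 0.21 ± 0.12 SE, limma adjusted p = 0.995). At 0.962 to 2.24 FPKM the gene is close to the filter, where log2(FPKM + 1) understates a change.

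Other AGE receptors and scavengers differed little. Of 9 tested, 7 were above 0 and 2 below (median 0.0558), and AGER was the 1 at an unadjusted p under 0.05 (3.25% of all genes were higher at that level). OLR1, the lectin-like receptor of oxidised lipoprotein, ran from 0.978 to 1.45 FPKM (median 1.12, n = 6) with AGEs and from 0.362 to 1.28 FPKM (median 0.949, n = 6) without, and these ranges overlap. TLR4, the lipopolysaccharide receptor, which also takes part in RAGE ligand responses, ran from 10.8 to 13.1 FPKM (median 12.5, n = 6) with AGEs and from 12.6 to 13.5 FPKM (median 13.2, n = 6) without. DDOST, a subunit of the oligosaccharyltransferase also described as an AGE receptor, was level in all groups, at 109.6 to 123 FPKM with AGEs and 106 to 120.3 without (-0.01 ± 0.05 SE, and -0.03 without AGEs 1 or -0.04 without glucose 3). LGALS3, a further AGE-binding protein, was not analysed here.

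RAGE ligands were more often above 0 than below. Of 12 tested, 9 were above 0 and 3 below (median 0.0961), and S100A6 was the 1 at an unadjusted p under 0.05 (3.25% of all genes were higher). The median was 0.058 without BSA 2. S100A6, a small calcium-binding protein, stood at 48.2 ± 9.45 FPKM with AGEs, 39.6 ± 7.40003 with BSA, 47.5 ± 5.31 with AGEs plus glucose and 35.998 ± 9.33 with glucose (SD, n = 3). Glucose 3 was its lowest library and the groups overlap. S100A4, a related protein linked to cell motility, varied within groups from 232 to 651 FPKM, so that its log2 difference of 0.45 ± 0.25 SE carries a wide error. It also overlaps S100A3 in the annotation. S100A11 ran from 391 to 489.6 FPKM with AGEs and from 324 to 449 without, and glucose 3 was its lowest library. Its log2 difference over all groups was 0.13, and 0.06 without glucose 3.

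Downstream of RAGE the lists were split evenly. Of 28 adaptors and kinases 14 were above 0 and 14 below (median -0.0003). TRAF6, an adaptor of the receptor, stood at 4.41 ± 0.217 FPKM with AGEs and 5.42 ± 0.338 with BSA, and at 4.59 ± 0.312 and 4.902 ± 0.683 in glucose (SD, n = 3). Of 21 NF-kappaB subunits and feedback targets 9 were above 0 and 12 below (median -0.0073). RELA, the transactivating subunit, ran from 9.999 to 13.8 FPKM (median 12.4, n = 6) with AGEs and from 6.84 to 12.8 FPKM (median 9.15, n = 6) without, with the glucose 1 library inside the AGEs range. SOD2, the mitochondrial superoxide dismutase and an NF-kappaB target, was near 1 FPKM in all groups and overlaps WTAP in the annotation. Cytokine and chemokine genes had 12 above 0 and 10 below (median 0.0062). They lay apart by setting, with 18 of 22 below 0 without glucose and 17 of 22 above 0 in it. Of all genes 49.5% were above 0 without glucose and 49.9% in it. The list's mean, as a log2 deviation, was -0.1219, 0.1432 and -0.0048 in AGEs 1 to 3 and 0.0537 to 0.1114 with BSA. It was 0.0235, 0.0108 and -0.2765 in glucose 1 to 3 and -0.0207 to 0.0176 with AGEs plus glucose. The median over all groups was 0.0216 without AGEs 1 and -0.0545 without glucose 3. The difference between settings was not tested for the list. CXCL8, the neutrophil-attracting interleukin, stood at 76.1, 104 and 107 FPKM with AGEs against 112, 125 and 125 with BSA, and at 102, 114 and 99.96 with AGEs plus glucose against 113, 105 and 95.5 with glucose. All 3 AGEs libraries lay below the BSA libraries, while the glucose pair overlaps, and the log2 difference over all groups was -0.17 ± 0.10 SE (limma adjusted p = 0.847). AGEs 1 was its lowest library, and without it that difference was -0.08.

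MAPK14, the p38 kinase of the same pathway, was the list member with the widest difference and did not vary smoothly. It stood at 17.1, 16.9 and 6.55 FPKM with AGEs, 6.701, 6.16 and 7.42 with BSA, 6.0005, 17.7 and 17.5 with AGEs plus glucose and 5.93, 5.88 and 7.21 with glucose. In 4 of the 6 AGEs libraries the value was 16.9 to 17.7, and in every other library 5.88 to 7.42. The log2 difference of 0.84 ± 0.27 SE over all groups did not pass (limma adjusted p = 0.779). MDFIC, a regulator of transcription factors with a MyoD family inhibitor domain, was likewise at 1.996, 2.103 and 2.07 FPKM with AGEs and 5.86, 6.31 and 6.73 with BSA, but at 2.23, 5.88 and 5.13 with AGEs plus glucose and 5.31, 6.14 and 6.67 with glucose. The low level of 2.00 to 2.23 was seen in 4 of the 6 AGEs libraries and in no other. Its log2 difference was -0.85 ± 0.19 SE (limma adjusted p = 0.697).

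Among the 12 genes with the smallest p that were higher with AGEs, differences ran from 0.20 to 0.43 on the log2 scale, each with a limma adjusted p = 0.697. FHL3, a LIM-domain protein, stood at 26.6, 21.96 and 24.6 FPKM with AGEs and 20.999, 20.9 and 20.98 with BSA, and in glucose at 22.1, 22.6 and 21.4 with AGEs and 16.96, 18.1 and 16.4 without. All 6 AGEs libraries lay above the other 6, the BSA libraries were tightly grouped, and the log2 difference was 0.27 ± 0.05 SE (n = 6 against 6, unadjusted p = 0.000229). NFAM1, an immune receptor that signals to NFAT, stood at 10.2, 10.5 and 10.7 with AGEs and 9.29, 8.71 and 10.03 with BSA, and in glucose at 10.5, 10.6 and 10.3 and 8.43, 8.35 and 7.48. Its 6 AGEs values sit within 10.2 to 10.7 FPKM, just above the highest BSA library. SLC26A6, an anion exchanger, ran from 5.21 to 5.996 FPKM (median 5.6002, n = 6) with AGEs and from 4.55 to 5.03 FPKM (median 4.73, n = 6) without.

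RAB9A, a GTPase of transport from late endosomes to the Golgi, ran from 4.23 to 6.08 FPKM (median 4.99, n = 6) with AGEs and from 2.75 to 3.96 FPKM (median 3.82, n = 6) without. TROAP, a protein of the mitotic spindle, ran from 4.95 to 5.68 FPKM (median 5.26, n = 6) with AGEs and from 3.15 to 4.48 FPKM (median 4.32, n = 6) without. EVA1B ran from 3.11 to 4.703 FPKM (median 3.82, n = 6) with AGEs and from 2.12 to 3.03 FPKM (median 2.704, n = 6) without, and overlaps SH3D21 in the annotation. These genes had no overlap between libraries with and without AGEs, and the log2 differences were 0.39 ± 0.09 SE for RAB9A, 0.29 ± 0.07 SE for TROAP and 0.41 ± 0.10 SE for EVA1B.

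The remaining genes of this set overlapped by 1 or more libraries. LYPLA2, a thioesterase that removes palmitate from proteins, ran from 22.3 to 26.1 FPKM with AGEs and from 19.2 to 22.4 without. BEX1 ran from 15.97 to 19.5 and from 14.5 to 16.6, and both genes were apart within each setting. CCDC115, an assembly factor of the vacuolar proton pump, ran from 7.79 to 10.8 and from 5.85 to 8.24, and overlaps IMP4. ISG15, the interferon-induced ubiquitin-like protein, ran from 35.4 to 43.6 and from 23.7 to 38.7, with BSA 3 inside the AGEs range. NAT14 stood at 1.19 to 1.91 and 0.893 to 1.52, close to the filter. The type I interferon list to which ISG15 belongs had 14 of 21 members above 0 (median 0.0437), and BST2, a tether of virus particles, was its other member at an unadjusted p under 0.05, from 124 to 135 FPKM with AGEs and from 107 to 127 without.

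**Figure D3:**
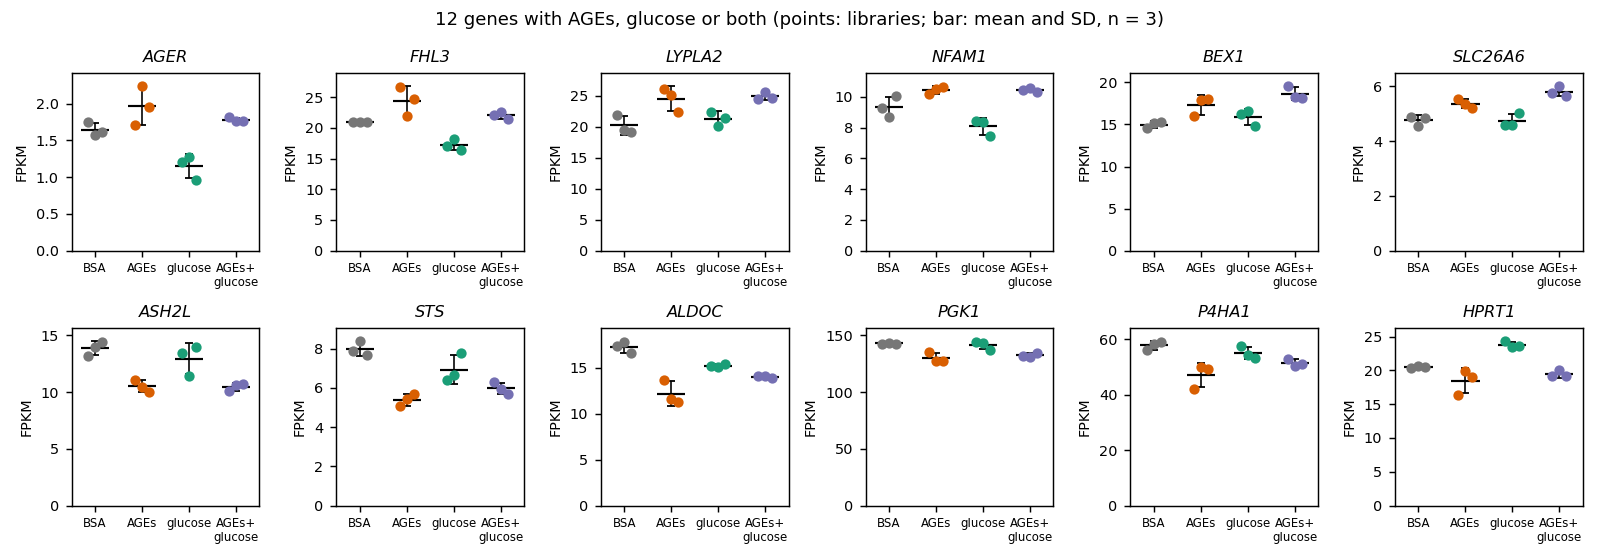
FPKM (y axis, from 0) in each library of the 4 groups (x axis) for 6 genes higher with AGEs (top) and 6 lower (bottom); points are libraries, bars the mean and SD of 3. In FHL3, NFAM1, SLC26A6, ASH2L, STS, ALDOC, PGK1, P4HA1 and HPRT1 no AGEs library reaches a library without AGEs, while AGER, LYPLA2 and BEX1 overlap when all 12 are set side by side.

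Among the 12 genes with the smallest p that were lower with AGEs, ASH2L came first. ASH2L, a core subunit of the MLL-family histone methyltransferase complexes, stood at 11.1, 10.5 and 10.02 FPKM with AGEs and 13.2, 13.9 and 14.4 with BSA, and in glucose at 10.1, 10.6 and 10.7 with AGEs and 13.5, 11.4 and 13.97 without. All 6 AGEs values lie within 10.0 to 11.1 FPKM, and glucose 2 was the library nearest to them. The log2 difference was -0.32 ± 0.06 SE (n = 6 against 6, limma unadjusted p = 8.48e-05, adjusted p = 0.697), the smallest p of all genes, and it was alike without glucose (-0.37) and in it (-0.28). ASH2L overlaps STAR on the opposite strand. STS, the steroid sulfatase, stood at 5.07, 5.43 and 5.68 with AGEs and 7.87, 8.38 and 7.66 with BSA, and in glucose at 6.27, 5.95 and 5.69 and 6.38, 6.65 and 7.77. The AGEs libraries were the low ones in both settings, with a log2 difference of -0.49 ± 0.08 SE without glucose and -0.18 ± 0.08 SE in it.

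Other genes of this set ranged over several functions. HPRT1, the purine salvage enzyme, ran from 16.4 to 20.05 FPKM (median 19.2, n = 6) with AGEs and from 20.3 to 24.3 FPKM (median 21.99, n = 6) without. UBE3A, a ubiquitin ligase, ran from 4.66 to 5.35 FPKM (median 5.01, n = 6) with AGEs and from 5.43 to 7.78 FPKM (median 6.07, n = 6) without. IMPACT, an inhibitor of the kinase GCN2, ran from 7.67 to 8.08 FPKM (median 8.01, n = 6) with AGEs and from 8.56 to 10.2 FPKM (median 9.01, n = 6) without. These 3 genes had no overlap, with log2 differences of -0.21, -0.27 and -0.18. HAUS1, an augmin subunit of the spindle, ran from 9.85 to 13.1 FPKM with AGEs and from 13.5 to 15.9 without, and overlaps ATP5F1A. TRIQK ran from 1.99 to 3.14 and from 3.32 to 4.28, also without overlap. DNTTIP2, a nucleolar protein, ran from 3.46 to 5.48 and from 5.46 to 6.88, and CCNE2, cyclin E2, from 2.31 to 2.99 and from 2.91 to 3.71. Both of these overlap by a narrow margin, and CCNE2 also overlaps INTS8 and NDUFAF6 in the annotation.

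Lists of neutrophil function had medians from 0.005 to 0.0598 over all groups, and no difference between them was tested. MPO stood at 134, 110.1 and 108 FPKM with AGEs and 111, 115 and 102 with BSA, and in glucose at 127, 124 and 127 with AGEs and 90.5, 90.1 and 92.3 without. The 3 glucose libraries were the lowest of all 12 and did not overlap AGEs plus glucose, while the pair without glucose overlaps. The log2 difference was 0.28 ± 0.08 SE over all groups (limma unadjusted p = 0.00305, adjusted p = 0.779), 0.09 ± 0.08 SE without glucose and 0.47 ± 0.08 SE in it, with an interaction of 0.38 ± 0.11 SE (limma adjusted p = 0.863). Of 11 azurophil granule genes 8 were above 0 (median 0.0507, and 0.0323 to 0.0954 with 1 library left out), and BPI, a bactericidal protein of these granules, was the other at an unadjusted p under 0.05, from 6.53 to 7.34 FPKM with AGEs and from 4.92 to 7.07 without.

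Of 5 specific and gelatinase granule genes 5 were above 0 (median 0.0598), with a median of 0.0902 without glucose and 0.0554 in it, and 0.0385 to 0.1163 over all groups with 1 library left out. Genes of neutrophil extracellular traps had 6 above 0 and 6 below (median 0.005), with a median of 0.0371 without glucose and -0.0603 in it. Of 27 neutrophil receptors and adhesion molecules 20 were above 0 and 7 below (median 0.0575), with 5 higher at an unadjusted p under 0.05 (3.25% of all genes were) and 0 lower. The receptors' median was -0.0171 without glucose and 0.1126 in it. CSF3R, the receptor of granulocyte colony-stimulating factor, stood at 19.2, 16.9 and 16.6 FPKM with AGEs and 17.4, 18.3 and 17.6 with BSA, and in glucose at 18.1, 18.97 and 17.6 with AGEs and 12.8, 13.8 and 12.9 without. The glucose libraries were again the low ones and the other 9 lay together, with a log2 difference of 0.44 ± 0.07 SE in glucose (limma adjusted p = 0.0831). Without AGEs 1, whose spread enters the shared fit, CSF3R and MPO were both called in glucose, among 7 genes. ITGAX, the alpha subunit of a complement receptor, had the same layout, at 14.04 ± 1.09, 13.7 ± 0.653, 14.5 ± 0.167 and 11.1 ± 0.498 FPKM with AGEs, BSA, AGEs plus glucose and glucose (SD, n = 3). SELPLG, the ligand of P-selectin, stood at means of 34.4, 32.02, 31.5 and 26.8 in the same order. FCGR1A, the high-affinity receptor of IgG, ran from 8.58 to 10.1 FPKM with AGEs and from 7.38 to 8.73 without, and its reads may be shared with its near-identical copies. Of 10 genes of the phagocyte NADPH oxidase 7 were above 0 (median 0.0537). CYBA, the p22phox subunit, ran from 67.7 to 79.1 FPKM (median 71.6, n = 6) with AGEs and from 56.1 to 69.7 FPKM (median 65.5, n = 6) without, and C17orf62, needed for the cytochrome to be made, from 12.5 to 14.4 and from 10.7 to 14.02. Both overlap between the groups.

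Eosinophil and basophil genes had the highest median of the 36 lists. Of 12 tested, 11 were above 0 and 1 below (median 0.140), 3 were higher at an unadjusted p under 0.05 (3.25% of all genes were) and none had groups without overlap. CLC stood at 2269, 2417 and 2384 FPKM with AGEs and 2193, 2085 and 2319 with BSA, and in glucose at 2539.9, 2503 and 2563 with AGEs and 2436, 2415 and 2219.9 without. The AGEs plus glucose libraries were the 3 highest of all 12, and the pair without glucose overlaps (log2 difference over all groups 0.10 ± 0.03 SE, limma adjusted p = 0.791). EPX, the eosinophil peroxidase, stood at 17.2, 11.98 and 12.3 with AGEs and 11.8, 12.7 and 11.9 with BSA, and in glucose at 16.3, 16.9 and 17.6 and 13.9, 13.6 and 13.98. Without glucose only AGEs 1, the library with the lowest weight, stood above the BSA libraries, while in glucose all 3 AGEs libraries stood above those without. Its log2 difference over all groups was 0.22, and 0.15 without AGEs 1. PRG2, the granule major basic protein, ran from 129 to 179.7 FPKM (median 152, n = 6) with AGEs and from 80.9 to 158 FPKM (median 144, n = 6) without, with 1 low library, BSA 2. CEBPE, a granulocyte transcription factor shared by neutrophils and eosinophils, ran from 172 to 186 FPKM (median 181, n = 6) with AGEs and from 139 to 173 FPKM (median 167, n = 6) without. Glucose 3 was its lowest library, and the log2 difference of 0.15 over all groups was 0.11 without it. The mean of the 12 genes was -0.06 to 0.02 with AGEs, -0.16 to -0.09 with BSA, 0.07 to 0.18 with AGEs plus glucose and -0.09 to 0.12 with glucose, as log2 deviations. The summed neutrophil markers given above had ranges that overlap between libraries with and without AGEs, as had the summed eosinophil and basophil markers, and their part in the result was not tested.

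Genes that handle reactive dicarbonyls, the precursors of AGEs, did not stand out over all groups. Of 13 genes of dicarbonyl detoxification and the polyol pathway 6 were above 0 and 7 below (median -0.0027). Without glucose 11 of 13 were above 0 (median 0.0756), and in glucose 6 of 13 (median -0.004). Of all genes 49.5% were above 0 without glucose and 49.9% in it. The difference between settings was not tested for this list. DCXR, the dicarbonyl and xylulose reductase, stood at 10.02, 11.6 and 9.82 FPKM with AGEs and 7.11, 6.12 and 7.68 with BSA, and in glucose at 8.61, 8.698 and 9.07 with AGEs and 7.41, 8.51 and 7.82 without. All 6 AGEs libraries lay above the other 6, by a narrow margin in glucose, and the log2 difference was 0.33 ± 0.08 SE (n = 6 against 6, limma adjusted p = 0.748). GLO1, glyoxalase I, the main enzyme of methylglyoxal removal, stood at 292 to 360.3 FPKM with AGEs and 335 to 384 without (-0.05 ± 0.05 SE, and -0.0059 without AGEs 1 or -0.0801 without glucose 3). TXNIP, the arrestin that responds to glucose, stood at 207, 216 and 221 FPKM with AGEs and 221, 217 and 234 with BSA, and in glucose at 209, 203 and 211 with AGEs and 192, 190.4 and 183 without. Its libraries overlap without glucose, while in glucose all 3 AGEs libraries lay above the others (0.14 ± 0.05 SE, limma adjusted p = 0.753). Over all groups the TXNIP difference was 0.04 ± 0.04 SE, and 0.06 without AGEs 1 or 0.02 without glucose 3.

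The other lists lay close to the middle of all genes. Of the 36 lists 33 had a median within 0.1 of 0, and 0 of 794 entries tested passed over all genes. Nuclear-encoded genes of oxidative phosphorylation had 55 of 76 above 0 (median 0.0525). That median was 0.0021 without glucose 3, 0.0068 without BSA 2 and 0.0137 without AGEs 2, and 0.0829 at most with 1 library left out. The list had 66 above 0 without glucose (median 0.0888) and 41 in glucose (median 0.0074). Cytosolic ribosomal proteins had 52 of 79 above 0 (median 0.0308), and RPL10 was at 219.8 to 256 FPKM with AGEs and 198 to 224 without. The median of this list was 0.0086 without AGEs 2, 0.0113 without glucose 3 and 0.0144 without BSA 2, and 0.0487 at most with 1 library left out. Of its members 69 were above 0 without glucose (median 0.0491) and 41 in glucose (median 0.0086). Mitochondrially encoded genes were below 0 in 13 of 13 without glucose and above 0 in 12 of 13 in it, for a median of -0.0015 over all groups. Of all genes 49.5% were above 0 without glucose and 49.9% in it. The mean of these mitochondrial genes, as a log2 deviation, was -0.1224, -0.0292 and -0.0184 in AGEs 1 to 3 and -0.0718 to 0.0507 with BSA. It was 0.09, 0.074 and -0.1756 in glucose 1 to 3 and 0.0508 to 0.0727 with AGEs plus glucose. Their median over all groups was 0.0122 without AGEs 1 and -0.0356 without glucose 3. Ribosome biogenesis and MYC target genes had 22 of 31 above 0 without glucose and 2 of 31 in it. Heat shock genes had 4 of 22 above 0 (median -0.0512, and -0.0288 without glucose 3 or -0.0305 without AGEs plus glucose 1), with HSPH1, a chaperone of the HSP110 family, at 11.6 ± 0.703, 12.1 ± 0.412, 12.3 ± 0.356 and 15.6 ± 1.82 FPKM with AGEs, BSA, AGEs plus glucose and glucose (SD, n = 3). The glucose libraries were the high ones there. Genes of proliferation had 12 of 37 above 0 (median -0.0158). These opposite signs by setting were not tested for any list.

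**Figure D4:**
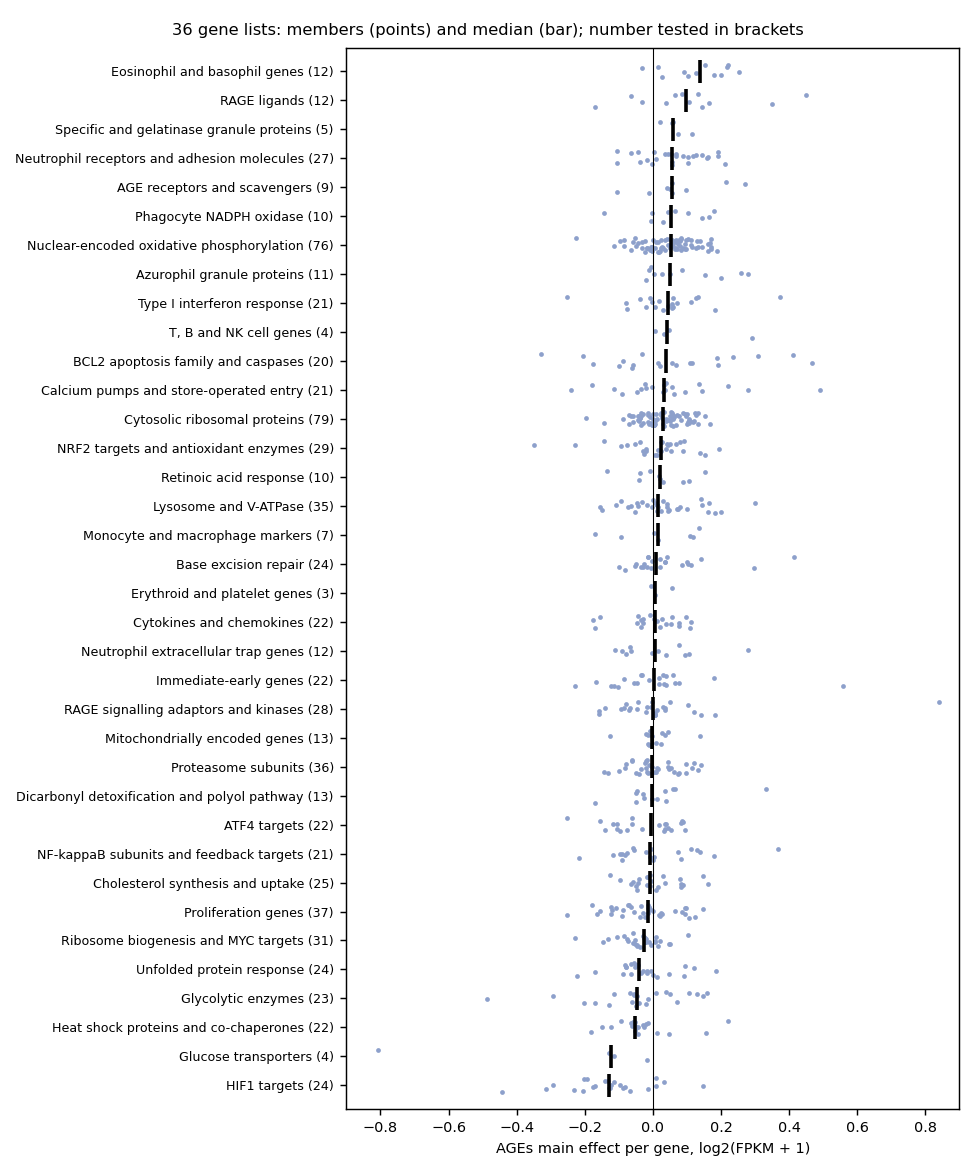
Each point is a member of 1 of 36 gene lists (y axis, tested members in brackets), placed by its log2(FPKM + 1) difference between the 6 libraries with AGEs and the 6 without (x axis); the bar is the list's median. Medians run from -0.128 for HIF1 targets to 0.140 for eosinophil and basophil genes, and 33 of 36 lie within 0.1 of 0.

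The genes that passed a test of AGEs did so in 1 setting each. TDG, the thymine DNA glycosylase of base excision repair, stood at 15.3, 16.6 and 16.1 FPKM with AGEs and 6.86, 8.13 and 8.66 with BSA, and in glucose at 15.5, 17.3 and 16.6 with AGEs and 18.2, 17.5 and 17.9 without. The BSA libraries were the low ones and the other 9 lay together between 15.3 and 18.2. TDG rose without glucose (0.94 ± 0.08 SE, n = 3 against 3, limma adjusted p = 0.000955), while in glucose the difference was -0.11 ± 0.08 SE (adjusted p = 0.916). It was the 1 gene whose effects in the 2 settings were shown to differ (0.0103% of genes, interaction -1.05 ± 0.11 SE, limma adjusted p = 0.0148), and over all groups it averaged to 0.42 ± 0.16 SE (adjusted p = 0.824). That call was lost when AGEs 3, BSA 2, AGEs plus glucose 3 or glucose 2 was left out, with adjusted p from 0.0589 to 0.0796.

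ATP2B4 had a different layout. It stood at 46.9, 43.3 and 45.1 FPKM with AGEs and 24.1, 24.9 and 20.9 with BSA, and in glucose at 22.3, 21.7 and 20.9 with AGEs and 18.7, 21.4 and 22.2 without. Only the AGEs group was high, and the other 9 libraries lay between 18.7 and 24.9 FPKM. The gene rose without glucose (0.93 ± 0.08 SE, limma adjusted p = 0.000955) and differed by 0.06 ± 0.08 SE in glucose. Its interaction was -0.87 ± 0.12 SE (adjusted p = 0.0555, and 0.0425 with TMM scaling or 0.021 with library weights), and its average over all groups 0.49 ± 0.14 SE (adjusted p = 0.779, or 0.0336 in the fit of group means).

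In glucose 3 genes were called, which fall outside the rule for named genes and were chosen after their values were seen. CYP17A1, the steroid hydroxylase and lyase, stood at 6.82, 6.93 and 5.48 FPKM with AGEs plus glucose and 11.6, 11.98 and 12.3 with glucose, and at 6.11, 5.93 and 6.03 with AGEs and 6.37, 6.91 and 5.803 with BSA. It fell in glucose (-0.81 ± 0.09 SE, n = 3 against 3, limma adjusted p = 0.015), where the glucose libraries were the high ones. BMF, a BH3-only promoter of apoptosis, stood at 13.1, 13.2 and 12.99 with AGEs plus glucose and 8.77, 8.26 and 8.61 with glucose, and at 15.3, 13.4 and 12.9 with AGEs and 12.8, 13.3 and 13.6 with BSA. It rose in glucose (0.56 ± 0.07 SE, adjusted p = 0.0267), where the glucose libraries were the low ones. LMO2, a transcriptional cofactor of blood cell development, stood at 15.8, 15.2 and 15.3 with AGEs plus glucose and 10.3, 11.3 and 10.4 with glucose, and rose (0.50 ± 0.07 SE, adjusted p = 0.0498) from a level below the 12.3, 13.8 and 13.1 of the AGEs libraries and the 12.01, 12.5 and 13.4 of the BSA libraries. Differences without glucose were -0.06 for CYP17A1, 0.06 for BMF and 0.04 for LMO2. Their interactions of AGEs with glucose did not pass (limma adjusted p = 0.119 for CYP17A1, 0.306 for BMF and 0.339 for LMO2). A different effect without glucose is thus not shown for these genes. The call of CYP17A1 was lost without glucose 3 (adjusted p = 0.0997) and held without any of the other 11 libraries. It was also lost with the 2 groups fitted alone (adjusted p = 0.0839). BMF kept its call only without AGEs 1 or AGEs 3, and LMO2 only without AGEs 1, and otherwise their adjusted p ran from 0.0597 to 0.206 and from 0.0662 to 0.3. LMO2 was also lost without the filter (adjusted p = 0.0538), with quantile normalization (0.0512), with plain variance moderation (0.0589) and with the 2 groups fitted alone (0.0882). CYP17A1 overlaps WBP1L in the annotation.

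The next genes by interaction p lay on opposite sides in the 2 settings without passing. GORASP2, a protein that stacks the Golgi, stood at 6.81, 5.47 and 7.59 FPKM with AGEs and 11.2, 11.3 and 10.03 with BSA, and in glucose at 12.4, 9.55 and 11.5 with AGEs and 5.82, 5.65 and 7.99 without. AGEs and glucose alone were both low and the combination was at the level of BSA (interaction 1.35 ± 0.20 SE, limma adjusted p = 0.094). FAM134A, a protein of the endoplasmic reticulum, had means of 9.25, 12.2, 11.7 and 7.33 with AGEs, BSA, AGEs plus glucose and glucose (interaction 0.98 ± 0.16 SE, adjusted p = 0.116). STOML2, a protein of the inner mitochondrial membrane, had means of 32.97, 25.6, 30.03 and 39.3 in the same order (interaction -0.73 ± 0.12 SE, adjusted p = 0.116). Over all groups these 3 genes averaged to 0.03, 0.13 and -0.01 on the log2 scale.

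**Figure D5:**
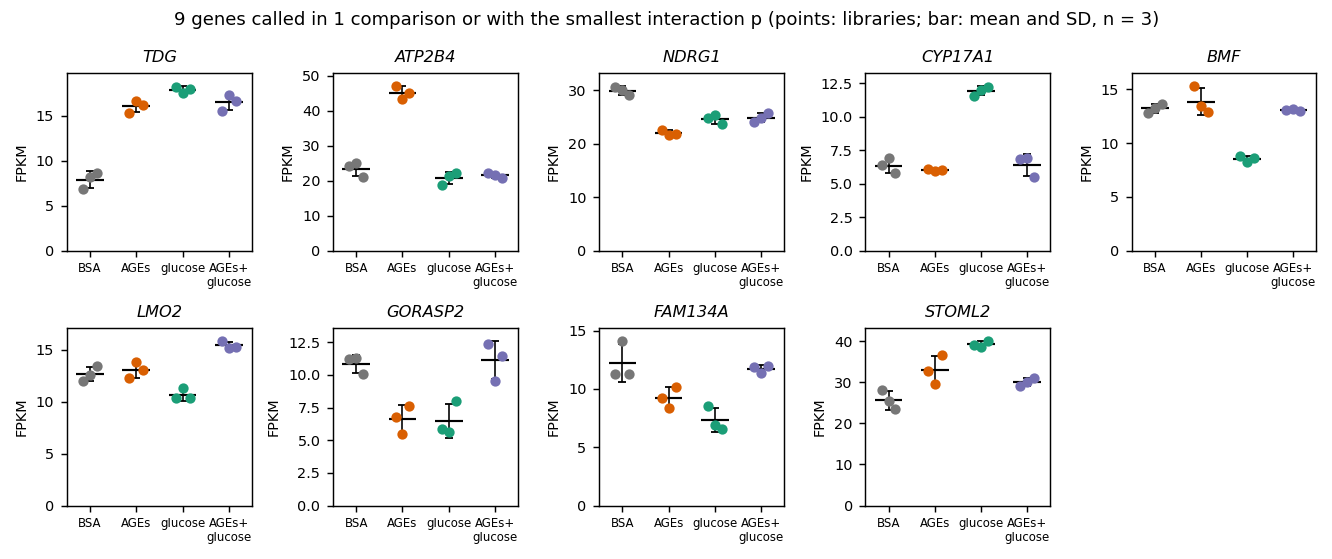
FPKM (y axis, from 0) in each library of the 4 groups (x axis) for the 6 genes called in 1 comparison of AGEs and for GORASP2, FAM134A and STOML2; points are libraries, bars the mean and SD of 3. One group stands apart from the other 3 for TDG (BSA, 6.86 to 8.66 FPKM), ATP2B4 (AGEs, 43.3 to 46.9) and CYP17A1 (glucose, 11.6 to 12.3).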

How the data were processed

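Total RNA of 12 libraries, 3 in each of 4 groups, was sequenced by the authors. The deposited table holds FPKM values per gene, in 1 column for each library, per the file headers, so depth and counting error are unknown. Tools listed in the submitters' processing notes are HISAT2 2.0.5, STAR 2.5.2b, StringTie and cutadapt, and the listed build is hg19; their roles are not recorded. Sources used here do not give the annotation, strandedness or filters. The highest group mean of a row was never under 0.500 FPKM, and 19 symbols stood in more than 1 of the 10465 rows.

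Rows with FPKM of at least 1 in at least 3 libraries were kept (714 removed, 9751 tested) and analysed as log2(FPKM + 1), which understates the change of low genes. The main model in limma 3.58.1 (R 4.3.3, statmod 1.5.0) had AGEs and glucose as factors, an intensity trend and robust moderation, with Benjamini-Hochberg adjusted p under 0.05. A second model of 4 group means gave the AGEs effect without and with glucose and their interaction. The fits were checked on simulated data. Genes and 36 lists with 956 entries were chosen with earlier results of these data known, so no list was tested. Named genes were the 12 with the smallest p in each direction, up to 4 members of a described list by p, 5 by interaction p and 10 fixed ones. Of the symbols, 9116 were current in RefSeq, 474 older and 144 unmatched. Same-numbered libraries deviated together at r from -0.214 to 0.128, and the numbers were not taken as pairs in the main fits. Whether they are pairs is not known.

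Alternatives were log2(FPKM + 0.1), dropping the filter or asking for a mean FPKM of 5, TMM or quantile scaling, plain variance moderation, library weights, a model lacking glucose, the compared groups alone, a replicate block and leaving out each library. Leaving out AGEs 1 and glucose 3 together was added after seeing the data.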

Additional observations from a re-analysis of the deposited data

Results flagged for a closer look

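TDG stood out because the effect of AGEs differed between the setting without glucose and the setting with it, by the interaction test itself. The AGEs effect with glucose minus that without was -1.05 ± 0.11 SE on the log2 scale (limma adjusted p = 0.0148), from 7.89 ± 0.924 to 16.02 ± 0.647 FPKM without glucose and from 17.9 ± 0.371 to 16.5 ± 0.891 with it (SD, n = 3). TDG was higher in 3 of 3 AGEs libraries than in any BSA library, and lower in 3 of 3 libraries with AGEs plus glucose than in any with glucose alone. BSA is named for the control group only, so that glucose and the absence of BSA cannot be told apart in this difference.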

How the results depend on the processing

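The count of genes called for AGEs over all groups was 0 in every fit but that of group means, which called 1 (ATP2B4), and 0 to 0 with libraries left out. The median log2 difference of all genes was 3.88e-05 in the main fit, -0.000375 with TMM scaling and -0.00222 with quantile scaling. Both scalings align the libraries with each other, so a median near 0 was set in advance. The 3 calls without glucose became 10 with library weights, 7 in the fit of the groups compared alone and 9 without AGEs 1 and glucose 3, and ranged from 2 to 6 with 1 library left out. The 3 calls in glucose became 27, 5 and 10 in the same fits, and ranged from 0 (without glucose 3) to 7 (without AGEs 1). The 1 call of the interaction became 2 with TMM scaling, 14 with library weights and 7 without AGEs 1 and glucose 3, and ranged from 0 to 4. With the replicate block the calls were 0 over all groups, 2 without glucose, 0 in glucose and 1 for the interaction, with adjusted p = 0.202 for NDRG1, 0.162 for BMF, 0.197 for LMO2 and 0.0535 for CYP17A1. Of 12 libraries 1 had deviations that correlated best with its own number. This cannot show whether samples of 1 number were handled together, and the labels do not say. Other fits that ended the calls of NDRG1, LMO2 or CYP17A1 are given beside those genes. TDG and ATP2B4 stayed called without glucose in all fits. At a mean FPKM of at least 5 the list medians became 0.0195 for AGE receptors, -0.0609 for ATF4 targets, 0.1084 for monocyte markers and 0.1702 for T, B and NK genes. The NADPH oxidase median became 0.0217 with quantile normalization, and that of the unfolded protein response -0.0159 with library weights and -0.0044 without AGEs 1 and glucose 3. With libraries left out, medians ran from 0.0392 to 0.0919 for neutrophil receptors, 0.0021 to 0.0829 for oxidative phosphorylation, -0.0441 to -0.0044 for the unfolded protein response, -0.0243 to 0.1057 for monocyte markers, -0.0106 to 0.0172 for cholesterol synthesis, -0.0233 to 0.005 for RAGE signalling and 0.0424 to 0.0755 for the NADPH oxidase. Among the genes named, DDOST alone changed sign over all groups, from -0.06353 to 0.005464 with libraries left out. The cause of these shifts was not tested. HIF1 targets kept a median below 0 (-0.148 to -0.104) and eosinophil genes one above 0 (0.0952 to 0.167). The unknown depth limits what can be said of genes near 1 FPKM.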
